A study of Mus musculus with 5 samples.

Results

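The genes described here are 9 genes that decide what doxorubicin (DOX) meets inside a cell: its targets Top2a and Top2b, the efflux pumps Abcb1a, Abcb1b, Abcc1 and Abcg2, and the reductases Cbr1, Cbr3 and Por. They were taken by symbol from the feature lists, where each symbol had 1 row, so that they make up 9 of 32285 features in the T cell libraries and 9 of 54987 in the whole-tumor libraries. DOX is an anthracycline that traps topoisomerase II on cut DNA. Topoisomerase II alpha, from Top2a, is made by dividing cells, whereas topoisomerase II beta, from Top2b, is also made by resting cells. Pumps of the ATP-binding cassette family carry the drug back out of the cell, carbonyl reductases turn it into its alcohol doxorubicinol, and cytochrome P450 reductase, from Por, can pass an electron to its quinone.

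Levels were measured by droplet single-cell RNA sequencing of mammary fat pad tumors grown from 4T1, a mouse triple negative breast cancer line. According to the methods, the cells were the 4T1-Thy1.1 subline. All hosts were female BALB/c mice aged 12 weeks. Mice with sensitive or resistant tumors had received 3 intravenous doses of DOX at 5 mg/kg, given 3 days apart, and control mice saline, so that both T cell libraries come from treated mice. T cells were enriched by magnetic depletion of other immune cells and of CD90.1-bearing cancer cells, and each T cell library pooled cells from 3 tumors. The cancer cells in those libraries are therefore cells that escaped depletion. The whole-tumor library titled resistant names a sensitive tumor in its source field, while its DOX sensitivity field reads resistant like its title, and whole-tumor libraries are called here by their label. T cells made up 11.9% of kept cells in the control-labelled, 1.12% in the sensitive-labelled and 4.56% in the resistant-labelled one, and whether the whole-tumor labels belong to these libraries was not tested. Each group had 1 library, so no difference between libraries has a replicate check and no p-value is given.

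The T cell libraries held 31690845 (sensitive) and 35908799 (resistant) unique molecular identifiers (UMIs), and the whole-tumor libraries held between 537293 and 1731940. Kept cells numbered 3448 and 3091 in the T cell libraries and 263 to 488 in the whole-tumor libraries. The T cell libraries differed in RNA quality, with a median of 2.465% mitochondrial UMIs over the barcodes of the sensitive and 8.95% over those of the resistant library. They shared 31 barcodes, and whole-tumor libraries shared none with each other. Cells were put into gates by their marker genes, 10 per cell type. In the sensitive and resistant T cell libraries the cancer gate held 105 and 131 cells (median 21078 and 22493 UMIs per cell), the fibroblast gate 758 and 557, the macrophage gate 192 and 176 and the T cell gate 1853 and 1755. The whole-tumor cancer gate held 31 control-labelled, 5 sensitive-labelled and 43 resistant-labelled cells.

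The cancer gate carried its own markers. Epcam, an epithelial adhesion protein, stood at 1298 CPM (UMIs scaled to a common sum per gate) in sensitive and 1350 CPM in resistant cells of the T cell libraries, and Ptprc, the leukocyte antigen CD45, at 2.73 and 2.06 CPM. Markers of other cells were not level between the libraries, since the 10 fibroblast markers summed to 158 CPM in sensitive and 43.0 CPM in resistant cancer cells. The part of these markers, and of the mitochondrial share, in the ratios below was not tested. Thy1, which encodes CD90, reached 861 and 509 CPM there, and its row does not separate the line's Thy1.1 from the host's allele. In the whole-tumor cancer gates Thy1 was near 0, with 1 control-labelled UMI (1.73 CPM) and 3 resistant-labelled UMIs (3.34 CPM). The few fibroblasts of the same libraries (7 and 5 cells) had 367 and 382 CPM. The Thy1 row thus did not mark the cancer cells there, and whether they were the Thy1.1 subline was not tested. In the 5 sensitive-labelled whole-tumor cells neutrophil markers summed to 4610 CPM and cancer markers to 2642 CPM, so the data do not bear out a cancer label for them. They gave 2 UMIs of Abcb1b and none of the other members. With 37095 UMIs in that gate, a count of 0 allows up to 80.9 CPM (3 counts), and those cells enter no comparison.

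Brackets give 95% intervals, exact Poisson for a level, exact conditional binomial for a ratio and exact binomial for a share. All intervals cover counting error only, and they are too narrow where a few cells hold most UMIs of a gene.

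The promoters of the targets and of the Abcb1 pair are shown because levels of these genes split by cell type and by cell division below. Each window runs from 250 bases before to 50 after the RefSeq start on GRCm38.p6, read 5′ to 3′ on the gene's strand. Capitals mark CCAAT, bound by NF-Y, and GGGCGG, bound by Sp1-like factors, on either strand, so that ATTGG and CCGCCC are the same motifs read in reverse. None of the marked stretches overlaps another. CCAAT occurred in 37.4% and GGGCGG in 35.7% of 32851 RefSeq windows of this length. A match is a stretch of letters and not a measured binding site.
Top2a promoter, chr11:99024140-99024439, minus strand: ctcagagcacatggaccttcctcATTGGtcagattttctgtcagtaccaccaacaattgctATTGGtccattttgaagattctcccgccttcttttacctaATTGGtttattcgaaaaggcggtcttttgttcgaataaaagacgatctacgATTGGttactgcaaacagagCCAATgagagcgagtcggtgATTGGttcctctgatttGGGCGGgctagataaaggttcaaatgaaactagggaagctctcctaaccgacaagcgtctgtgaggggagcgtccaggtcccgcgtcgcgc
Top2b promoter, chr14:16364956-16365255, plus strand: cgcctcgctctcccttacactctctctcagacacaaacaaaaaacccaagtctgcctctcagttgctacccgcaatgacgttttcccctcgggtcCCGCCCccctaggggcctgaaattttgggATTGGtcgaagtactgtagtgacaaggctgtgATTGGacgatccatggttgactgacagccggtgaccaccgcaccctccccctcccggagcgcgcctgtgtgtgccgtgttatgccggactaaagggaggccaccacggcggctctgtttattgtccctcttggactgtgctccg
Abcb1a promoter, chr5:8566841-8567140, plus strand: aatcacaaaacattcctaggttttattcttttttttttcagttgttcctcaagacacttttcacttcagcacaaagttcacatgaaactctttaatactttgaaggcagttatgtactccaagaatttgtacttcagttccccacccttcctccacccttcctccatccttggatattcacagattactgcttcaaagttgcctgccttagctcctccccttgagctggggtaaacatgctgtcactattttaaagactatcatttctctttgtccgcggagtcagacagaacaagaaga
Abcb1b promoter, chr5:8797897-8798196, plus strand: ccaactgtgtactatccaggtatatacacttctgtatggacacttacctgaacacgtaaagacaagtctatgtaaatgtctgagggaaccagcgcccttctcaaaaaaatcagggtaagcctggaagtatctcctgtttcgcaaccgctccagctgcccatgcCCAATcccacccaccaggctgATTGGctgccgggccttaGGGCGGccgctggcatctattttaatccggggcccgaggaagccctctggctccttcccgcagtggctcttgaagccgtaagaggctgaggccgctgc
The Top2a window held 6 CCAAT matches, the Top2b window 2, the Abcb1b window 2 and the Abcb1a window 0. GGGCGG was found 1 time each in the Top2a, Top2b and Abcb1b windows. The Abcb1a window belongs to a RefSeq start that lies 92986 bases before the start of the GENCODE gene, and the libraries do not show which start was used. RefSeq windows were matched for 8 of the 9 members. Among those not printed, the Por window held 4 GGGCGG matches and no CCAAT, the Cbr1 window 1 CCAAT and the Cbr3 window 2 GGGCGG. Abcg2 had 3 windows, in order along the gene with 0, 2 and 4 GGGCGG and 0, 1 and 0 CCAAT. The Por and Cbr1 windows belong to starts 19112 and 1984 bases inside the GENCODE gene, and the later Abcg2 windows to starts 12149 and 56023 bases inside it.

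On GRCm38 (GENCODE M21) the targets lie apart, Top2a (ENSMUSG00000020914) at chr11:98992943-99024189 on the minus strand and Top2b (ENSMUSG00000017485) at chr14:16365179-16435462 on the plus strand. Abcb1a (ENSMUSG00000040584, chr5:8660077-8748575) and Abcb1b (ENSMUSG00000028970, chr5:8798147-8866315) are neighbours on the plus strand with a gap of 49.6 kb. Cbr1 (ENSMUSG00000051483, chr16:93605853-93610505) and Cbr3 (ENSMUSG00000022947, chr16:93683215-93690990) are neighbours too, 72.7 kb apart on the plus strand. Abcc1 (ENSMUSG00000023088) is at chr16:14361558-14475737, Abcg2 (ENSMUSG00000029802) at chr6:58584523-58695676 and Por (ENSMUSG00000005514) at chr5:135670033-135735326, all on the plus strand. The Abcb1 transcripts were 88.8% identical over 3985 aligned bases and shared 1083 words of 30 bases, but none of those words lay in the last 400 bases of both transcripts, the end that a 3′ library reads. Cbr1 and Cbr3 shared 31 such words and none in their last 400 bases, and Top2a and Top2b shared none.

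Between sensitive and resistant cancer cells of the T cell libraries Top2a, lower in resistant cells, was the member farthest from 1 among those with enough UMIs. In whole tumor, where the resistant-labelled library (by its label after DOX) was set against the control-labelled one (by its label after saline), Top2a was lower in the resistant-labelled cancer gate. Treatment and label cannot be told apart in that pair. Of the 9 members, 6 had at least 50 UMIs over the cancer gates of the T cell libraries, and 0 of them were past 1.5-fold in either direction, where 10.5% of all 7808 genes with that many UMIs were. With so few members, 0 of 6 does not set them apart from that share. The interval excluded 1 for 1 of the 6, Top2a. The median ratio of all genes there was 0.945. In the whole-tumor cancer gates 2 members had enough UMIs and 1, Top2a, was past 1.5-fold, where 22.1% of 3441 genes were. Fibroblasts had 0 of 8 members past it (10.5% of all genes) and T cells 0 of 8 (12.0%). Macrophages had 1 of 6, Cbr3 (11.3%). With each ratio divided by the median ratio of all genes, Top2a (1.51) and Abcb1b (1.51) in T cells and Top2a in macrophages (1.53) came just past 1.5-fold. The share of all genes past 1.5-fold was not counted under that scaling, so these values have no background beside them. Members below 50 UMIs in the T cell library cancer gates were Abcb1a, Abcg2 and Cbr3.

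**Figure D1:**
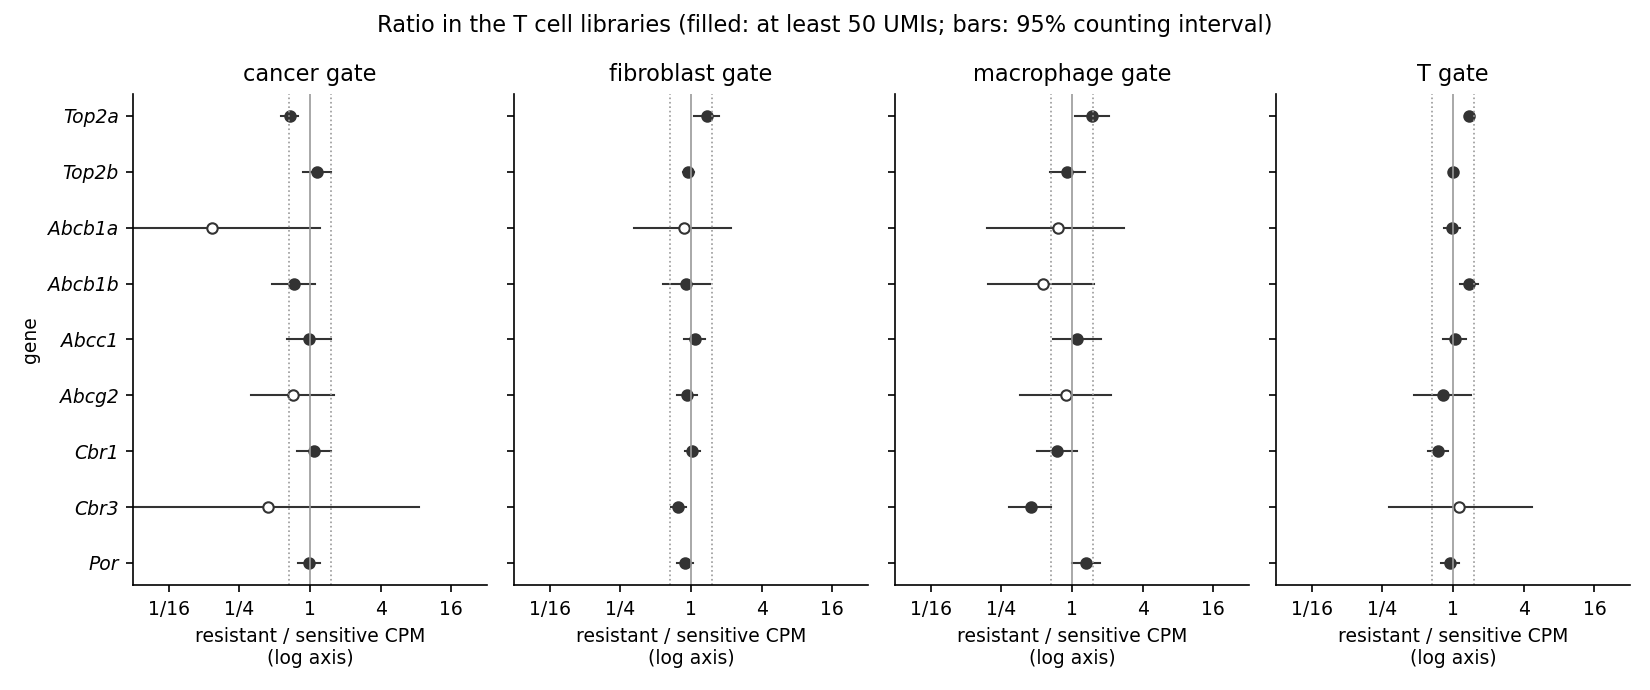
Resistant over sensitive CPM ratio of each gene (x axis, log scale) in the cancer, fibroblast, macrophage and T cell gates of the T cell libraries. Filled points have at least 50 UMIs over both libraries, open points fewer, and bars are 95% counting intervals, which for Abcb1a and Cbr3 in the cancer gate run past the axis. Top2a lies at 0.671 in the cancer gate and at 1.36, 1.48 and 1.36 in the others, and Cbr3 in macrophages lies at 0.447.

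**Figure D2:**
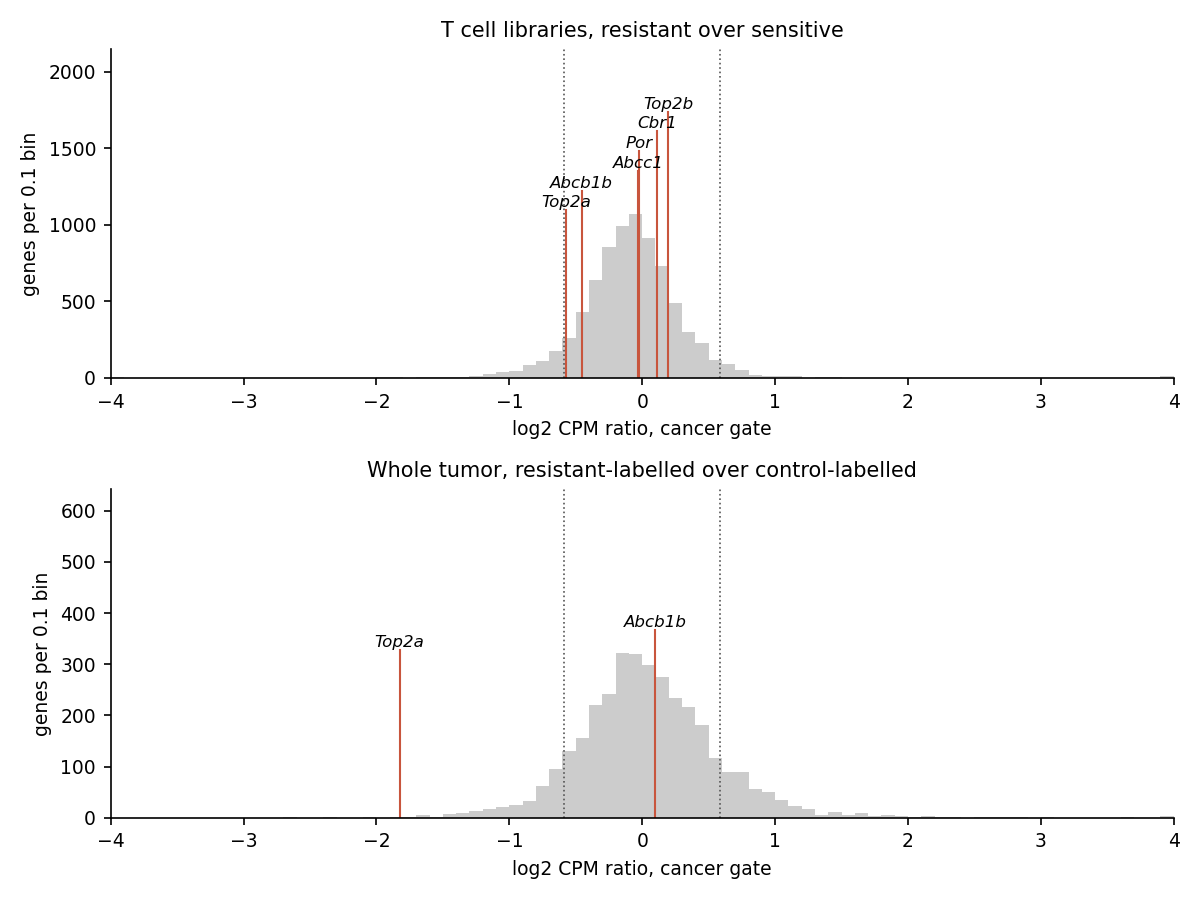
Distribution of the log2 CPM ratio in the cancer gate over all genes with at least 50 UMIs (y axis, genes per bin of 0.1 log2 units), for the T cell libraries (resistant over sensitive) and whole tumor (resistant-labelled over control-labelled), with the members marked. The 6 members with at least 50 UMIs in the T cell libraries lie between log2 −0.58 (Top2a) and 0.20 (Top2b), and Top2a in whole tumor lies at −1.83.

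Top2a was lower in the cancer gate of the resistant than of the sensitive T cell library. The resistant gate gave 267 UMIs, or 91.9 CPM [81.2–104], and the sensitive gate 351 UMIs, or 137 CPM [123–152], a ratio of 0.671 [0.570–0.789]. Of all genes with at least 50 UMIs over the pair, 7.59% had a ratio as low as that of Top2a or lower. Cells with a Top2a UMI were about as frequent in both gates, 46 of 131 (35.1%) in the resistant and 39 of 105 (37.1%) in the sensitive library. The UMIs were held by few of them. A single resistant cell held 116 UMIs, 43.4% of its gate's Top2a, and 2 cells held at least 50% of them, whereas in the sensitive gate the largest cell held 72 UMIs (20.5%) and 5 cells held at least 50%. Without the largest cell of each gate the ratio was 0.477 (151 and 279 UMIs). With each cell cut at random to 1000 UMIs, 8 of 130 resistant cells (6.15% [2.69–11.8]) and 9 of 105 sensitive cells (8.57% [3.99–15.6]) had a Top2a UMI. Neutrophils, which no longer divide, had none in 165 resistant and 127 sensitive cells so thinned (median 2458 and 2211 UMIs before), which by 3 counts allows a share of cells with a UMI, at that depth, of up to 1.82% and 2.36%. Before thinning 1 resistant neutrophil had a Top2a UMI.

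**Figure D3:**
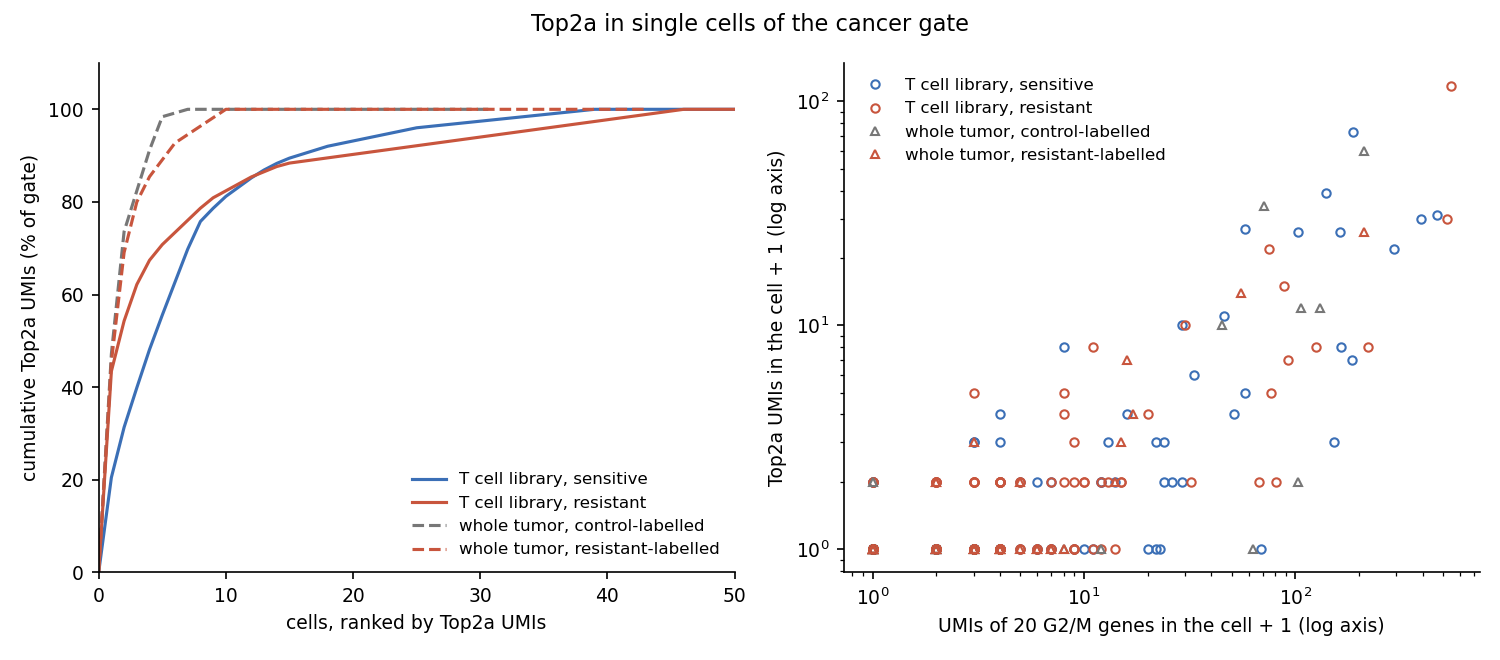
Top2a in single cells of the cancer gate. Left, the cumulative percentage of a gate's Top2a UMIs (y axis) over cells ranked by their Top2a UMIs (x axis), in the T cell libraries (solid lines) and the whole-tumor libraries (dashed lines). Right, Top2a UMIs per cell against the UMIs of 20 G2/M genes in the same cell, both plus 1 on log axes, 1 point per cell. The resistant T cell library's line starts with a cell that holds 43.4% of its Top2a UMIs, and that cell, with 116 Top2a UMIs, also has 543 G2/M UMIs.

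Most Top2a UMIs lay in dividing cells. Dividing cells were those with at least 3 UMIs over at least 2 of 20 G2/M genes, a list without Top2a. They were 51 of 105 cells (48.6%) of the sensitive and 53 of 131 (40.5%) of the resistant cancer gate, and they held 343 of the 351 and 250 of the 267 Top2a UMIs. Inside dividing cells Top2a stood at 225 CPM (sensitive) and 176 CPM (resistant), and outside at 7.69 and 11.5 CPM (8 and 17 UMIs). The ratio outside was 1.49, on too few UMIs to be counted. The G2/M list itself was lower in the resistant cancer gate, at 786 against 1158 CPM, with a ratio of 0.679 [0.643–0.718]. Mki67, a proliferation antigen on that list, had a ratio of 0.618 [0.476–0.801]. Per 100 UMIs of the list there were 11.7 Top2a UMIs in the resistant and 11.8 in the sensitive gate, a ratio of 0.988 [0.839–1.16]. With cells thinned to 2000 UMIs, 37.4% [27.9–47.7] of sensitive and 34.7% [26.4–43.7] of resistant cancer cells had a UMI of the list. Neutrophils so thinned had one in 18 of 80 (22.5%) and 19 of 108 cells (17.6%), so that a single UMI of the list does not mark a dividing cell. Of the cells called dividing, 20 of 51 sensitive and 32 of 53 resistant ones had fewer than 10 UMIs of the list.

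In the whole-tumor libraries Top2a was lower in the resistant-labelled than in the control-labelled cancer gate. The control-labelled gate gave 125 UMIs, or 217 CPM [180–258], and the resistant-labelled gate 55 UMIs, or 61.2 CPM [46.1–79.6], a ratio of 0.282 [0.202–0.391]. Cells with a Top2a UMI were 7 of 31 (22.6%) and 10 of 43 (23.3%), and 2 cells held at least 50% of the UMIs in each gate. The largest single cell held 59 of the 125 control-labelled UMIs and 25 of the 55 resistant-labelled ones. The G2/M list moved with it, with 1311 CPM in the control-labelled and 444 CPM in the resistant-labelled gate, a ratio of 0.339 [0.299–0.383]. Per 100 UMIs of the list Top2a stood at 16.5 and 13.8 UMIs, a ratio of 0.834 [0.596–1.15]. Dividing cells were 9 of 31 (29.0%) and 18 of 43 (41.9%), but 1 of the 9 and 12 of the 18 had fewer than 10 UMIs of the list, near the minimum of 3, and 8 control-labelled and 6 resistant-labelled cells had at least 10. With cells thinned to 2000 UMIs the order of the shares turned, a UMI of the list being found in 11 of 29 control-labelled (37.9% [20.7–57.7]) and 13 of 43 resistant-labelled cells (30.2% [17.2–46.1]). Outside dividing cells 1 and 4 Top2a UMIs were counted, which put the ratio at 2.44, and with every cell weighted alike it was 0.468.

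Fibroblasts, macrophages and T cells of the T cell libraries had Top2a ratios on the other side of 1. In fibroblasts Top2a stood at 10.6 CPM (sensitive) and 14.4 CPM (resistant), a ratio of 1.36 ([1.06–1.74], 128 and 139 UMIs, the largest cell 20 and 23 of them). Without dividing cells the fibroblast ratio was 0.639, on too few UMIs to be counted (20 and 10). In macrophages it was 28.6 and 42.4 CPM (1.48 [1.06–2.08], 64 and 90 UMIs, the largest cell 14 and 22), or 2.93 with every cell weighted alike. In T cells the levels were 114 and 156 CPM (1.36 [1.26–1.48]), with a UMI in 291 of 1853 cells (15.7%) and 393 of 1755 cells (22.4%). The T cell values rest on more cells, since it took 29 and 51 of them to hold at least 50% of the Top2a UMIs. Top2a stood at 421 and 443 CPM inside and 29.0 and 36.1 CPM outside dividing T cells. Dividing T cells were 8.74% of the sensitive and 14.8% of the resistant gate, the G2/M list had a ratio of 1.47 [1.42–1.51], and Top2a per UMI of the list a ratio of 0.931 [0.861–1.01]. In CD8+ T cells alone (1294 and 1524 cells) the Top2a ratio was 1.32 [1.21–1.45]. In macrophages dividing cells were 15 of 192 (7.81%) and 28 of 176 (15.9%). The G2/M list there had a ratio of 1.08 [0.955–1.21] that includes 1, and Top2a per UMI of the list 1.38 [0.990–1.93]. In fibroblasts the list had a ratio of 1.09 [1.02–1.17] and Top2a per UMI of it 1.25 [0.973–1.60].

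In the sensitive library Top2a stood in cancer cells at 1.20 times [1.06–1.35] T cells and 13.0 times fibroblasts. The first of these rests on a single cell, since without the cell with most Top2a in each gate cancer cells (112 CPM) and T cells (109 CPM) gave 1.02 [0.894–1.17]. In the resistant library T cells were above the cancer gate, which stood at 0.589 of their level, or 0.348 without those cells, and at 6.40 times fibroblasts. Natural killer cells, 35 and 24 by their markers, gave 144 [97.9–205] and 140 [95.2–199] CPM (31 UMIs each), intervals that overlap and include the T cell level of both libraries. Dendritic cells, 19 and 32 by their markers, gave 17 and 9 UMIs, or 64.2 [37.4–103] and 22.2 [10.1–42.1] CPM. These UMIs are too few for a counted ratio, and the overlap of the intervals does not decide whether the levels differ.

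Top2b, the isoform that resting cells also make, had ratios near 1 in both cancer cells and T cells of the T cell libraries. In the cancer gate it stood at 36.7 CPM (sensitive, 94 UMIs) and 42.0 CPM (resistant, 122 UMIs), a ratio of 1.15 [0.868–1.51] that includes 1. Its UMIs were spread over cells, with a UMI in 52 of 105 and 67 of 131 and no cell above 6. In T cells the levels were 112 and 112 CPM (0.998 [0.916–1.09], 1051 and 1112 UMIs). Among the cancer, fibroblast, macrophage and T cell gates the order was the same in both libraries. T cells were 1.71 and 1.80 times fibroblasts, and fibroblasts 1.78 and 1.48 times cancer cells. Cancer cells and macrophages were neighbours that did not separate beyond counting error (1.08 [0.790–1.48] sensitive, 1.35 [0.993–1.85] resistant). Top2b ratios were 0.952 [0.855–1.06] in fibroblasts and 0.916 [0.648–1.29] in macrophages. Whole-tumor cancer gates gave 15 control-labelled and 20 resistant-labelled UMIs (0.855 [0.416–1.80]). The 3′ end of Top2b overlaps Rarb on the opposite strand. Level and division went apart for Top2b, which stood at 37.4 and 33.7 CPM inside and 35.6 and 49.9 CPM outside dividing cancer cells.

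**Figure D4:**
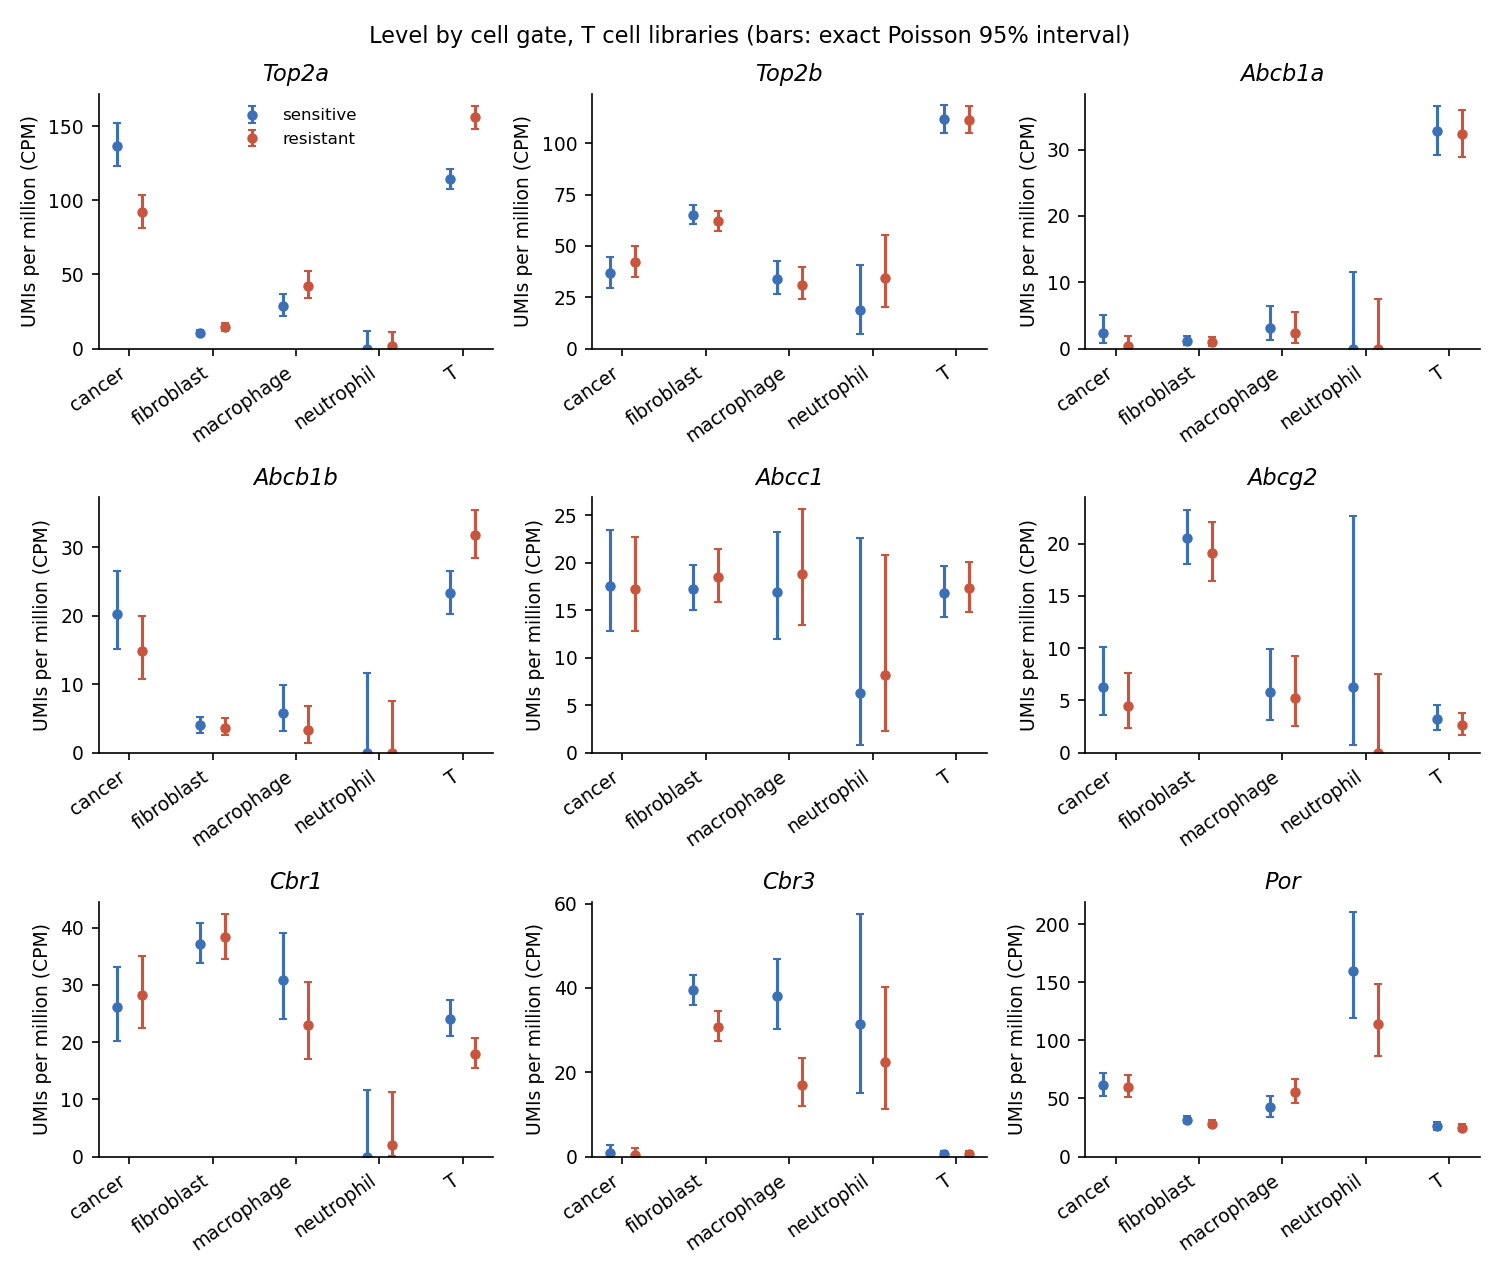
Level of each gene (y axis, CPM, linear from 0) by cell gate (x axis) in the sensitive and the resistant T cell library, 1 panel per gene. Points are the level over all cells of a gate and bars the exact Poisson 95% interval. Abcb1a is near 0 in the gates shown other than T cells (1 to 13 UMIs in cancer cells, fibroblasts and macrophages), Cbr3 is near 0 in cancer and T cells, and Abcc1 lies between 16.8 and 18.8 CPM in the cancer, fibroblast, macrophage and T cell gates.

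P-glycoprotein, the drug pump of the multidrug resistance phenotype, has a pair of genes in mice, Abcb1a and Abcb1b. In the T cell libraries T cells carried both, and cancer cells hardly any Abcb1a. Abcb1a was a T cell transcript, with 308 UMIs (32.8 CPM) in the sensitive and 322 UMIs (32.3 CPM) in the resistant T cell gate, a ratio of 0.986 [0.841–1.16]. The cancer gates gave 6 UMIs (2.34 CPM) in the sensitive and 1 UMI (0.344 CPM) in the resistant library. Their ratio was 0.147 [0.00320–1.21] on too few UMIs to be counted among the ratios. T cells were 14.0 times [6.36–38.4] cancer cells in the sensitive library. In the resistant library the same ratio was 93.8 [16.7–3718] over the single cancer cell UMI. Against macrophages T cells stood 10.5-fold and 13.7-fold higher. A UMI of Abcb1a was found in 14.4% and 15.3% of T cells, or 3.97% and 3.48% after thinning to 1000 UMIs, and in none of 127 and 165 neutrophils. Within T cells, CD8+ cells (Cd8a or Cd8b1 and no Cd4) had 40.0 CPM (sensitive) and 33.4 CPM (resistant), a ratio of 0.835 [0.704–0.991]. CD4+ cells (193 sensitive and 51 resistant) gave 18 and 2 UMIs, a ratio of 0.594 [0.0668–2.48] on too few UMIs to be counted. In whole tumor the cancer gates gave 4 control-labelled and 6 resistant-labelled UMIs of Abcb1a (6.93 and 6.67 CPM, 0.962 [0.228–4.64]). The whole-tumor T cell gates, of 58 and 12 cells, gave 3 UMIs (29.5 CPM [6.09–86.3]) and none, where 3 counts correspond to 60.4 CPM, so a split by cell type was not detectable there at this depth.

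Abcb1b was found in both cancer cells and T cells. It stood at 20.3 CPM [15.1–26.6] in sensitive and 14.8 CPM [10.7–19.9] in resistant cancer cells (52 and 43 UMIs), a ratio of 0.730 [0.476–1.11] that includes 1. Of all genes counted, 12.2% had a ratio at or below it. Cells with a UMI were 32 of 105 and 30 of 131, with no more than 4 UMIs in a cell. Cancer cells were 5.12 times [3.39–7.74] and 4.09 times [2.56–6.59] fibroblasts, and 3.49 and 4.49 times macrophages. T cells were close to cancer cells in the sensitive library (1.15 times [0.845–1.59]) and above them in the resistant library (2.15 times [1.56–3.03]), where T cells stood at 31.8 CPM against 23.3 in the sensitive library (1.37 [1.15–1.63], 317 and 219 UMIs). The T cell difference was present in dividing cells (17.1 CPM sensitive, 31.0 resistant) and outside them (25.0 and 32.1). In CD8+ cells alone the ratio was 1.16 [0.960–1.40]. In cancer cells the resistant level was the lower inside dividing cells and the higher outside them. Inside dividing cells Abcb1b stood at 25.6 CPM (39 UMIs) in the sensitive and 13.3 CPM (19 UMIs) in the resistant gate. Outside them it stood at 12.5 CPM (13 UMIs) and 16.2 CPM (24 UMIs), too few UMIs for a counted ratio. No interval was taken for these values, so they do not decide whether the order turned with division. In whole tumor the cancer gates stood at 41.6 CPM (24 UMIs, control-labelled) and 44.5 CPM (40 UMIs, resistant-labelled), a ratio of 1.07 [0.629–1.85], and a UMI was seen in 14 of 31 and 19 of 43 cells. No UMI of Abcb1b was found in the neutrophils of either T cell library.

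Abcc1, the multidrug resistance protein that exports glutathione conjugates and anthracyclines, stood at similar levels in the cancer, fibroblast, macrophage and T cell gates. It stood at 17.6 CPM in sensitive and 17.2 CPM in resistant cancer cells (45 and 50 UMIs), a ratio of 0.980 [0.642–1.5004]. Fibroblasts stood at 17.3 and 18.5 CPM, macrophages at 17.0 and 18.8 and T cells at 16.8 and 17.4, and none of their 3 resistant over sensitive ratios had an interval without 1. The whole-tumor cancer gates gave 14 control-labelled and 18 resistant-labelled UMIs, or 24.3 and 20.01 CPM (0.825 [0.388–1.79]). The neutrophil gates of the T cell libraries gave 2 and 4 UMIs.

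Abcg2, the breast cancer resistance protein first found in a drug-selected breast cancer line, was low in cancer cells. It gave 16 UMIs (6.24 CPM) in the sensitive and 13 UMIs (4.47 CPM) in the resistant cancer gate, too few to be counted, with a ratio of 0.717 [0.317–1.59]. Fibroblasts held more of it, 20.6 and 19.1 CPM (249 and 185 UMIs), which is 3.29 and 4.27 times cancer cells, and their ratio was 0.930 [0.765–1.13]. T cells gave 30 and 26 UMIs. Endothelial cells, in which Abcg2 is a known pump of vessel walls, were rare, but 8 sensitive cells gave 15 UMIs (127 CPM [71.3–210]) and 6 resistant cells gave 3 (23.6 CPM [4.86–68.9]). Fibroblast markers in these cells summed to 3467 CPM sensitive and 0 resistant, and T cell markers to 476 and 0 CPM, and their part in the Abcg2 values was not tested. In whole tumor 2 control-labelled and 3 resistant-labelled cancer cell UMIs were counted.

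Cbr1, the main cytosolic carbonyl reductase acting on anthracyclines, was found in all 4 of these gates. In cancer cells it stood at 26.1 CPM (67 UMIs) in the sensitive and 28.2 CPM (82 UMIs) in the resistant library, a ratio of 1.08 [0.772–1.51], with a UMI in 44 of 105 and 53 of 131 cells. Fibroblasts stood 1.42 and 1.36 times higher and did not differ between libraries beyond counting error (37.2 and 38.3 CPM, 1.03 [0.895–1.18]). In T cells Cbr1 was lower in the resistant library, at 18.0 against 24.0 CPM (179 and 226 UMIs), a ratio of 0.747 [0.611–0.913]. In CD8+ cells alone the Cbr1 ratio was 0.835 [0.663–1.05]. CD4+ cells (193 sensitive and 51 resistant) gave 33 UMIs and 1 UMI, or 32.8 and 5.31 CPM. Their ratio was 0.162 [0.00398–0.967] on too few UMIs to be counted. The median over all genes of the T cell gate was a log2 ratio of −0.14. Divided by that median, the Cbr1 ratio of the T cell gate was 0.825, for which no interval was taken. Macrophages had a ratio of 0.749 [0.508–1.10] (69 sensitive and 49 resistant UMIs). In the whole-tumor cancer gate 3 control-labelled and 10 resistant-labelled UMIs were counted (2.14 [0.551–12.1]).

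Cbr3, a carbonyl reductase close to Cbr1 in sequence, was found in fibroblasts, macrophages and neutrophils and hardly in cancer or T cells. Fibroblasts gave 478 UMIs (39.5 CPM) in the sensitive and 298 UMIs (30.8 CPM) in the resistant library, against 2 UMIs and 1 UMI in the cancer gates, so that fibroblasts were 50.6 times [13.9–419] cancer cells in the sensitive library. Of fibroblasts, 41.2% and 35.7% had a UMI. Of T cells, 0.216% and 0.342% did. Neutrophils gave 10 and 11 UMIs (31.3 and 22.4 CPM). Between libraries Cbr3 was lower in resistant fibroblasts (0.781 [0.673–0.904]) and in resistant macrophages, where 85 sensitive UMIs (38.0 CPM) stood against 36 resistant ones (17.0 CPM), a ratio of 0.447 [0.294–0.667]. Cells with a UMI were 43 of 192 and 32 of 176 macrophages, and the 2 cells with most held 8 sensitive UMIs each. With every cell weighted alike the macrophage ratio was 0.836. After thinning to 1000 UMIs 1.57% [0.325–4.52] of sensitive and 4.55% [1.98–8.76] of resistant macrophages had a UMI, and after thinning to 2000 UMIs 4.65% [2.03–8.96] and 2.99% [0.979–6.85] did, so the thinned shares gave no order. Whole-tumor cancer gates gave 1 control-labelled and no resistant-labelled UMI, and 3 counts there correspond to 3.34 CPM in the resistant-labelled gate.

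Por, the electron donor of microsomal cytochromes P450 and a one-electron reductase of DOX, had a ratio near 1 between the T cell libraries and above it between the whole-tumor libraries, a difference that was not tested. In the T cell libraries the cancer gate stood at 61.2 CPM (157 UMIs) in the sensitive and 60.2 CPM (175 UMIs) in the resistant library, a ratio of 0.983 [0.788–1.23], with a UMI in 62 of 105 and 74 of 131 cells. Levels inside dividing cells (63.0 and 63.9 CPM) and outside them (58.6 and 56.7 CPM) were alike to within counting error. Cancer cells were 1.93 and 2.13 times fibroblasts and 2.35 and 2.44 times T cells. In the whole-tumor cancer gates Por gave 11 control-labelled UMIs (19.1 CPM [9.52–34.1]) and 37 resistant-labelled UMIs (41.1 CPM [29.0–56.7]), a ratio of 2.16 [1.08–4.69], or 3.83 with every cell weighted alike. A UMI was seen in 7 of 31 (22.6%) and 24 of 43 (55.8%) cells, and no cell held more than 3. These 48 UMIs are just under the 50 set as the minimum for a counted ratio. Neutrophil markers in the same gates summed to 1791 CPM control-labelled and 974 CPM resistant-labelled.

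Among gates of at least 30 cells the highest Por levels were in neutrophils. They stood at 160 and 114 CPM in the sensitive and resistant T cell libraries (51 and 56 UMIs) and at 156, 136 and 153 CPM in the whole tumors labelled control, sensitive and resistant (92, 48 and 45 UMIs). That is 2.61 and 1.89 times the cancer gate in the T cell libraries, and 8.19 and 3.72 times in the control-labelled and resistant-labelled tumors. After thinning to 1000 UMIs 16.5% and 12.7% of neutrophils had a Por UMI, against 5.71% and 8.46% of cancer cells. The part of neutrophil RNA in the Por counts of the cancer gates was not tested.

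**Figure D5:**
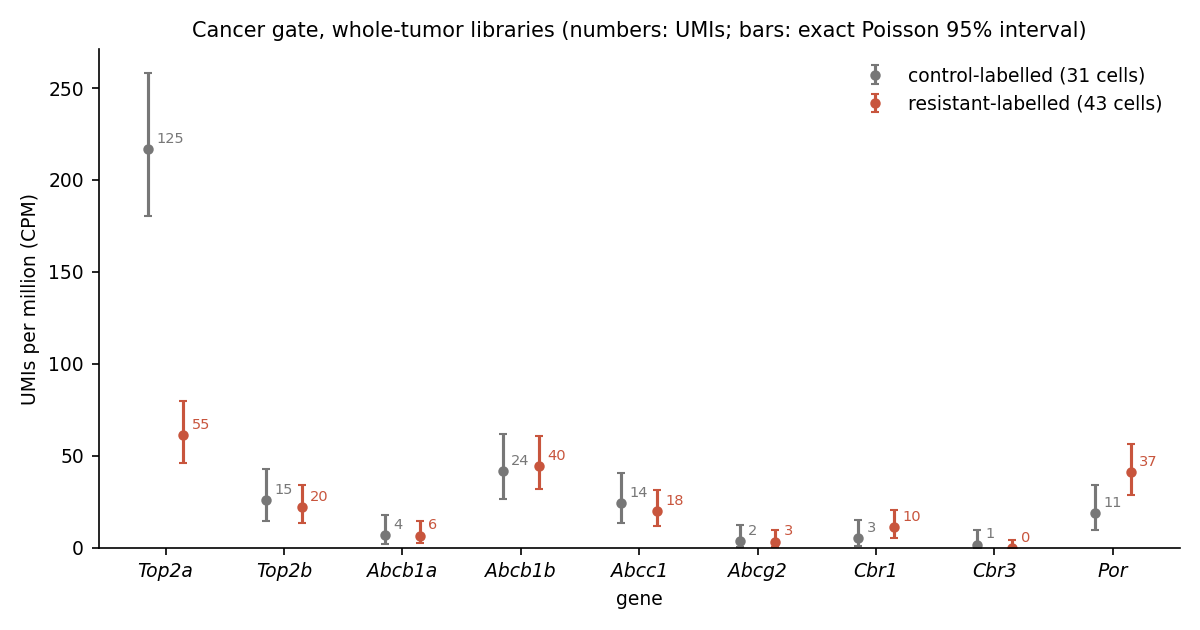
Level of each gene (y axis, CPM, linear from 0) in the cancer gate of the control-labelled (31 cells) and resistant-labelled (43 cells) whole-tumor libraries. Points are the level over all cells, bars the exact Poisson 95% interval and the numbers the UMIs counted. Top2a is lower (217 against 61.2 CPM) and Por higher (19.1 against 41.1 CPM) in the resistant-labelled gate. The intervals of Por overlap, but its ratio of 2.16 had an interval [1.08–4.69] without 1, on too few UMIs to be counted.

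Other genes of anthracycline handling were read from a list of 60 symbols. In the cancer gate of the T cell libraries 36 had enough UMIs, of which 5 were past 1.5-fold lower (7.34% of all genes) and 0 higher (3.2%) in the resistant library, with a median ratio of 0.925 (all genes 0.945). By role, 2 of 11 antioxidant and conjugating enzymes, 2 of 13 other reductases and 1 of 6 topoisomerase and DNA adduct repair genes were lower, and 0 of 5 other pumps and 0 of 1 uptake carrier. Tdp2, which frees topoisomerase II from DNA ends, had a ratio of 0.561 [0.357–0.873] (55 sensitive and 35 resistant UMIs). Xdh, xanthine dehydrogenase, had 0.552 [0.406–0.748] (115 and 72 UMIs), and Sod2, the mitochondrial superoxide dismutase, 0.650 [0.535–0.788] (254 and 187). Nos2, the inducible nitric oxide synthase, had 0.416 [0.248–0.682] (53 and 25 UMIs). Hmox1, heme oxygenase 1, had 0.118 [0.0738–0.182], but 1 sensitive cell held 89.4% of its 179 UMIs, and without the largest cell of each gate the ratio was 0.870 [0.436–1.74] (19 and 19 UMIs).

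In the whole-tumor cancer gates 21 of the 60 had enough UMIs, with 3 past 1.5-fold higher (12.7% of all genes) and 0 lower (9.33%) in the resistant-labelled library, and a median ratio of 1.10 (all genes 1.01). Abcc3, an export pump, had a ratio of 1.80 [1.06–3.16] (20 control-labelled and 56 resistant-labelled UMIs). Slco2a1, the prostaglandin transporter, had 1.54 [1.22–1.97] (101 and 243 UMIs). Hmox1 had 23.5 [9.88–73.2] (5 and 183 UMIs), but 1 resistant-labelled cell held 92.3% of the 183, and without the largest cell of each gate 4 and 14 UMIs gave 2.19 [0.687–9.12]. In the T cell libraries, where both sides were treated with DOX, Abcc3 and Slco2a1 stood at 0.706 [0.583–0.853] and 0.840, and the difference between the pairs of libraries was not tested.

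The genes most like each member in level were sought over 12 points, the gates of at least 30 cells in the T cell libraries, among 8861 genes with at least 500 UMIs. The measure was the Pearson correlation of log2(CPM + 10), and points share libraries, depth and cell types, so the values are descriptions. Top2a was most like Stmn1 (r = 0.986), Mcm5 (0.984) and Birc5 (0.980), of which Birc5 is also on the G2/M list. Abcb1b was most like E2f4 (0.973), Uhrf1 (0.961) and Mcm2 (0.960). Abcb1a was most like Ifng (0.993), Gpr174 (0.991) and I730030J21Rik (0.990), the first of which encodes interferon gamma. For Cbr3 the nearest were Nrg1 (0.952), Mitf (0.949) and Marcks (0.944), and for Por Txnrd1 (0.949), Smox (0.945) and Ptpn12 (0.945). Top2b was nearest to Izumo4 (0.976), Abcc1 to Znhit2 (0.974), Abcg2 to Slc39a7 (0.954) and Cbr1 to Ythdf1 (0.972).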

How the data were processed

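Per the file headers and labels, Cell Ranger 6.0.0 (T cell libraries) or 3.0.1 (whole tumor) was run by the authors on mm10, and they deposited raw UMI counts per gene and barcode. The feature lists of the sets differ, so no ratio was taken between the sets. The T cell libraries kept barcodes with 500 or more genes and no more than 10% mitochondrial UMIs, and whole tumor those with 200 or more genes. Putative doublets of the T cell libraries (112 sensitive, 159 resistant) were removed by the highest Scrublet scores, 0.8% per 1000 barcodes.

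A cell entered the gate of the marker list with the highest score, if at least 3 of its 10 markers were detected and the score was at least 2 times the next. Markers were scored per 10000 UMIs. UMIs of a gate were summed and scaled to CPM. Ratios were counted with at least 50 UMIs over a pair and called past 1.5-fold, with no test. The ratio step was tested on simulated data. All members were named, and so were other drug-handling genes past 1.5-fold in the cancer gate and up to 3 of the genes most like each member. The members and lists were chosen with earlier results of these data known. Alternatives changed the scaling, the weight of cells, the gate, the clusters, the doublet step, the cell filters, the cycling cells, the largest cell and the thinning. Rebuilt gates may differ from the cell types of the study.

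Versions were Python 3.11.15, NumPy 2.4.6, SciPy 1.17.1, pandas 2.3.3, Scanpy 1.11.5, leidenalg 0.10.2, Biopython 1.88 and Matplotlib 3.10.9. Promoters are RefSeq sequence on GRCm38.p6, and gene positions are from GENCODE M21.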

Additional observations from a re-analysis of the deposited data

Results flagged for a closer look

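Top2a was singled out because its resistant over sensitive ratio lay on opposite sides of 1 in cancer cells and in fibroblasts, macrophages and T cells of the same libraries, with intervals that excluded 1 on both sides. Natural killer cells (144 sensitive and 140 resistant CPM, 31 UMIs each) and dendritic cells (64.2 and 22.2 CPM, 17 and 9 UMIs) did not lie on the side of those 3 gates. The ratio was 0.671 in the cancer gate and 1.36 in fibroblasts, a 2.03-fold difference between the ratios. Against macrophages, at 1.48, the cancer gate's 0.671 differed 2.21-fold. Against T cells, at 1.36, the cancer gate's 0.671 differed 2.03-fold. With 1 library per group the difference between gates was not tested. Few cells carried the counts outside T cells, the largest cell holding 116 of 267 resistant cancer cell UMIs, 23 of 139 in resistant fibroblasts and 22 of 90 in resistant macrophages. Dividing cells were 48.6% [38.7–58.5] of sensitive and 40.5% [32.0–49.4] of resistant cancer cells, 5.15% [3.68–6.97] and 5.75% [3.96–8.01] of fibroblasts and 7.81% [4.44–12.6] and 15.9% [10.8–22.2] of macrophages, intervals that overlap in each of these gates. In T cells they were 8.74% [7.50–10.1] and 14.8% [13.2–16.6]. Without dividing cells the Top2a ratio was 1.49 in cancer cells (17 and 8 UMIs), 0.639 in fibroblasts and 1.25 in T cells. The cancer cell and fibroblast values rest on too few UMIs to be counted.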

How the results depend on the processing

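Over the alternatives, 170 values of the members with enough UMIs stayed within their counting interval, 15 moved beyond it and 1, of a ratio past 1.5-fold, reversed, and the cause was not tested. In all, 27 values lay on the other side of 1, of which 24 belong to ratios whose interval included 1, and the other 3 are those of Top2a without dividing cells in cancer cells of both sets and in fibroblasts. With every cell weighted alike the Top2a ratio was 0.562 in the cancer gate of the T cell libraries, 0.468 in that of whole tumor, 2.93 in macrophages and 1.59 in T cells, and the Cbr3 ratio in macrophages 0.836. Without dividing cells the ratio was 1.49 for Top2a (17 and 8 UMIs) and 1.30 for Abcb1b in cancer cells of the T cell libraries. Both rest on too few UMIs to be counted. For Top2a in whole tumor the direction then reversed, 2.44, on 4 and 1 UMIs. The same restriction, chosen for the other gates after seeing the data, gave 0.639 for Top2a and 0.726 for Abcg2 in fibroblasts and 1.25 for Top2a in T cells. Without the largest cell of each library Top2a in cancer cells stood at 0.477. Divided by the median ratio of all genes, Top2a in T cells stood at 1.51, Abcb1b at 1.51 and Top2b at 1.10, Top2a in macrophages at 1.53, and with a mitochondrial limit of 20% Top2a in T cells stood at 1.19. Cells of the named clusters gave 0.425 for Abcb1b in fibroblasts (37 and 113 UMIs). Por in cancer cells ranged from 0.967 to 1.20 in the T cell libraries and from 2.04 to 3.83 in whole tumor. Abcc1 in cancer cells of the T cell libraries ranged from 0.925 to 1.498, with 6 of 10 alternatives below 1 like the main value. Abcg2 there, on too few UMIs to be counted, ranged from 0.675 to 1.76. Cancer cells with no Cd3 UMI and those with at least 5000 UMIs were also tried after seeing the data, and moved no member beyond its interval. Leaving out the largest cell for the other drug-handling genes, and for Top2a in cancer cells against T cells, was likewise chosen after seeing the data. Shares of cells with a UMI depend on depth, and 25 of 45 moved without thinning. No paired analysis was possible because each group had 1 library.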
